A study of Homo sapiens with 5 samples.

Results

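The genes that encode potassium channels and their auxiliary subunits were compared between cardiomyocyte cultures made from human embryonic stem cells by a pair of protocols. The members were taken by symbol alone, as every gene named KCN followed by a family letter or letters and a number, and 96 of the 27139 genes in the deposited tables met this rule. In the YAPi cultures, H1 cells (a human embryonic stem cell line, wild type here) received a YAP inhibitor together with Activin, with a labelled treatment time of 24 h, and in the GiWi cultures wild-type H1 cells received a GSK3 inhibitor and a Wnt inhibitor, with a labelled time of 48 h. RNA was taken at day 30 of differentiation from 3 YAPi and 2 GiWi cultures and sequenced as bulk mRNA. The labels give no untreated arm, and they do not say whether the libraries of a group came from separate differentiations, so the p-values describe how far these libraries vary, and that variation may be technical only. All cultures derive from H1, and inhibitor, cytokine and treatment time differ together between the groups, so their parts cannot be told apart.

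Potassium channels carry the outward current that ends the action potential of heart cells and hold their resting potential. Voltage-gated pores open on depolarisation and give the transient outward, ultra-rapid, rapid and slow delayed rectifier currents of the heart. Inward rectifiers and tandem-pore background channels set the resting potential, calcium-activated pores couple it to calcium, and small auxiliary subunits change the gating and traffic of the pores. KCNA5, which carries the ultra-rapid current, and KCNJ3, a subunit of the acetylcholine-activated channel, are used as markers of atrial muscle.

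Tested over all genes with edgeR's quasi-likelihood test, 25 members were higher in YAPi cultures and 28 were lower, at an adjusted p under 0.05, while 20 did not pass the test and 23 had too few counts to be tested. Of all genes tested 57.1% were called, 30.2% as higher and 26.9% as lower, so calls alone were common in this comparison. Among the 73 members tested 72.6% were called, 34.2% as higher and 38.4% as lower, and 20 members were higher and 20 lower by at least 2-fold. That is 54.8% of the members tested, beside 23.3% of all genes tested, of which 15.2% were higher and 8.14% lower. The median absolute log2 fold change was 1.26 over the members and 0.43 over all genes tested, and the members were also the weaker expressed, with a median level of 3.35 CPM (counts scaled to library depth) beside 13.9 over all genes. The signed medians lay near 0, at 0.07 for the members and 0.01 for all genes. In 61 of the 73 members (83.6%) the YAPi and GiWi libraries did not overlap, beside 75.8% of all genes tested. KCNE1B overlaps KCNE1 in hg19 and KCNJ18 overlaps KCNJ12, so each pair shares reads and its members are uncertain. Without KCNE1B and KCNJ18 the counts were 25 higher and 27 lower of 71.

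**Figure D1:**
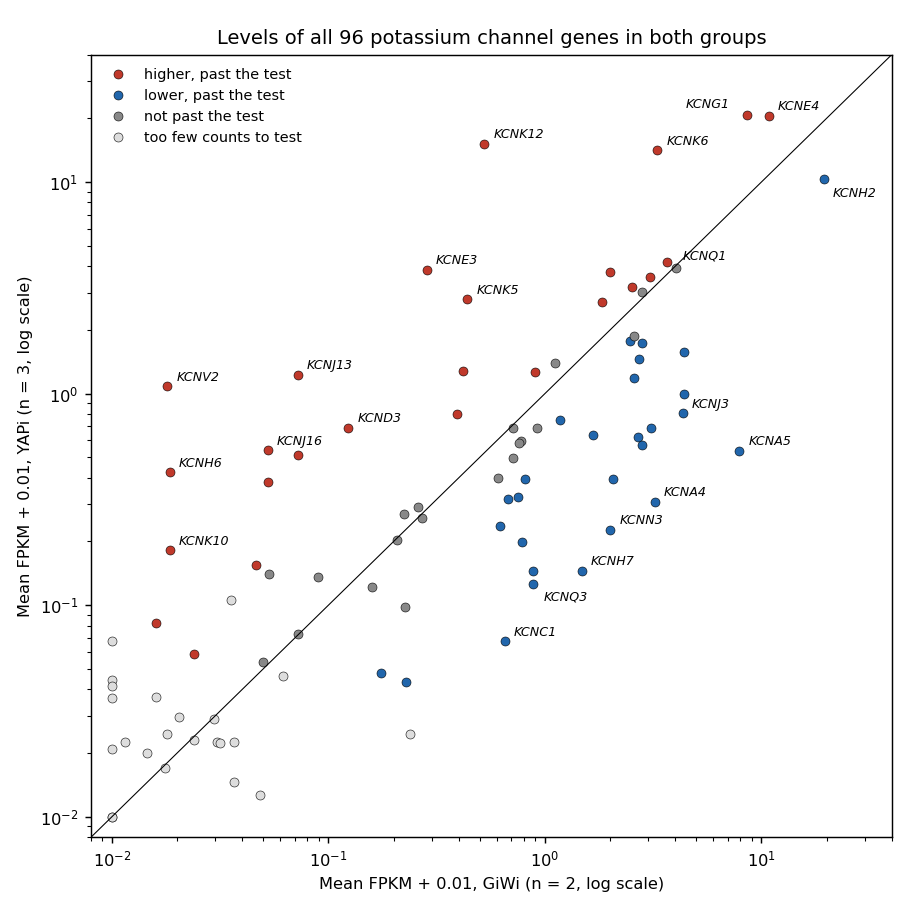
Mean FPKM (fragments per kilobase of transcript, scaled to library depth) of each potassium channel gene in YAPi (vertical axis) and GiWi cultures (horizontal axis), both on log scales after adding the small constant named on the axes, with the colour giving the edgeR call and a diagonal of equal levels. KCNK12 and KCNV2 stand far above the diagonal, and KCNA5 and KCNA4 far below it.

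Depth was alike in the groups, with 43661188 to 48825439 counted reads in YAPi and 48309765 to 48904302 in GiWi libraries. YAPi replicate 3 stood apart from its group, with a correlation of log2 CPM of 0.976 and 0.977 with replicates 1 and 2, beside 0.997 between those and 0.997 between the GiWi libraries. None of the 15 cardiomyocyte markers was at 0 in either group. Their summed FPKM was 2861, 2874 and 1210 in YAPi libraries 1 to 3, against 4008 and 3767 in GiWi libraries, with 2 markers higher, 3 lower and 10 not past the test. Of the 10 macrophage markers 10 were higher in YAPi cultures, with sums of 238, 240.4 and 91.5 against 2.79 and 3.16, and CD163 and C1QB were at 0 in GiWi libraries. All 10 gut epithelium markers were higher as well (392.2, 376 and 202 against 46.0 and 47.0), and 9 of 10 eye and pigment cell markers (66.8, 66.3 and 46.0 against 7.58 and 6.85), with SIX6 and TYR at 0 in GiWi libraries. Of the neuronal markers 8 of 10 were higher and 2 lower, and of the atrial markers 5 of 7 were lower and none higher. Of the 4 ventricular markers 2 were higher and 1 lower, with sums of 309, 324 and 132 in YAPi libraries, against 68.2 and 68.0 in GiWi libraries. Of the 10 fibroblast markers 6 were higher and 3 lower, with sums of 15974, 16149 and 18706 against 9857 and 9542. This sum, carried mainly by COL1A1, COL1A2 and COL3A1, was highest in YAPi replicate 3, while DCN and LUM were lowest there. In such bulk samples, fewer cells of a type and less RNA per cell cannot be told apart, and the part of these other cell types in the channel results was not tested.

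The order of expression differed between the groups. In YAPi cultures KCNG1 (20.7 ± 2.92 FPKM) and KCNE4 (20.5 ± 0.81) stood first, followed by KCNK12 (15.1 ± 0.90), KCNK6 (14.1 ± 0.33) and KCNH2 (10.4 ± 1.31; SD, n = 3). The libraries of KCNG1 and KCNE4 overlapped, as did those of KCNK12 and KCNK6, so these neighbours were not separated beyond their spread. In GiWi cultures KCNH2 stood first at 19.4 ± 0.024 FPKM, ahead of KCNE4 (10.8 ± 0.66), KCNG1 (8.58 ± 0.80), KCNA5 (7.88 ± 0.0014) and KCNN2 (4.39 ± 0.24; SD, n = 2), whose libraries overlapped those of KCNIP1 and KCNJ3 behind it. KCNK12 held place 46 of the 96 in GiWi cultures and KCNA5 held place 40 in YAPi cultures. At least 1 FPKM was reached by 25 members in YAPi and 30 in GiWi cultures, and at least 10 FPKM by 5 and 2.

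The RefSeq promoters of 4 members are shown as examples chosen by hand: KCNK6 and KCNJ13, higher in YAPi cultures, and KCNA5 and KCNJ3, lower. Each is 300 bases on GRCh38.p14, from 250 before the transcription start to 50 after it, printed on the gene's strand, and capitals mark a motif of TEAD factors (GGAATG, read on the other strand as CATTCC), of GATA factors (AGATAA or TTATCT) or of T-box factors (GGTGTGA or TCACACC). TEAD factors are the DNA-binding partners of YAP, and GATA and T-box factors act in heart development. They lie at chr19:38319595-38319894 on the plus strand (KCNK6), chr2:232776516-232776815 on the minus strand (KCNJ13), chr12:5043629-5043928 on the plus strand (KCNA5) and chr2:154698445-154698744 on the plus strand (KCNJ3).
KCNK6: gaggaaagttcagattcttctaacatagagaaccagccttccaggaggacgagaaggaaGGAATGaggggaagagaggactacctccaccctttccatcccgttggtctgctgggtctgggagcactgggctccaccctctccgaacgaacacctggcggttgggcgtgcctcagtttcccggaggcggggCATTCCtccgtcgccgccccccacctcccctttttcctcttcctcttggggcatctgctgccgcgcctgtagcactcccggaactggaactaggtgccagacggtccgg
KCNJ13: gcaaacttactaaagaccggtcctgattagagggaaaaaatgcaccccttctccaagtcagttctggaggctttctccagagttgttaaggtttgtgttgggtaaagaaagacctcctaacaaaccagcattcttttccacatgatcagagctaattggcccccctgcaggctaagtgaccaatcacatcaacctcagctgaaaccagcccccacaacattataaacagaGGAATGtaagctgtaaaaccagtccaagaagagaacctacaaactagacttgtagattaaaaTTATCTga
KCNA5: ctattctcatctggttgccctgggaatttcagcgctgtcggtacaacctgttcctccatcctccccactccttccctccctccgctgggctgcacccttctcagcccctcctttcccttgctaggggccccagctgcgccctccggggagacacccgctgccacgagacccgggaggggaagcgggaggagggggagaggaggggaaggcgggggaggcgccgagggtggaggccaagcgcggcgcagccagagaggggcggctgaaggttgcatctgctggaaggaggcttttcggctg
KCNJ3: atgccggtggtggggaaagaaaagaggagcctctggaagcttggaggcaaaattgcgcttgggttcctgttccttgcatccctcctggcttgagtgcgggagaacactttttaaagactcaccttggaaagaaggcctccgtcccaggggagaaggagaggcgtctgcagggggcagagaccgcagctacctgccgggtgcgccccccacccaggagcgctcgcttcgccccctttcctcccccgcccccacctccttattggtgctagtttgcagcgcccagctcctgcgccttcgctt
The KCNK6 window held 2 TEAD motifs and the KCNJ13 window 1 TEAD and 1 GATA motif, while none of the 3 motifs was in the KCNA5 and KCNJ3 windows. Over all called members, the TEAD motif was in 3 of 23 windows of higher genes, those of KCNK6, KCNJ13 and KCNQ5. It was in 3 of 40 windows of lower genes, those of KCNC1, KCNK2 and KCNN1. The printed windows therefore do not represent the motif content of the called members. Windows were found for 71 members (109 windows), and 11.0% of them held the TEAD motif, beside 14.0% of all 35116 promoters. The GATA motif was in 9.17% of member windows, beside 10.3% of all, and the T-box motif in 5.51% beside 3.45%. A match is a string of letters and not a measured binding site.

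The Shaker-related group covers the voltage-gated families KCNA to KCND, whose members open and inactivate quickly or slowly on depolarisation, and the silent subunits KCNF, KCNG, KCNS and KCNV, which conduct only in complex with KCNB pores. Of its 27 members 18 were tested, with 6 higher, 8 lower and 4 not past the test. Over all genes tested 30.2% were higher and 26.9% lower. KCNA5, at chr12:5153085-5155954 in hg19, had 0.507, 0.507 and 0.564 FPKM in YAPi libraries, against 7.88 and 7.88 in GiWi libraries. The groups lay far apart, and the level was 13.6-fold higher in GiWi cultures (log2 fold change -3.77 ± 0.09 SE, edgeR adjusted p = 1.84e-05). Between the groups KCNA5 went the same way as the atrial marker list. The summed FPKM of that list was 708, 713 and 328 in YAPi libraries, against 1250 and 1174 in GiWi libraries. Within YAPi cultures KCNA5 was highest in replicate 3, where that sum, carried mainly by MYL4 and NPPA, was lowest. Of the 7 atrial markers 4 were lower there than in replicates 1 and 2 on average, while NR2F1, NR2F2 and SLN were highest there. The part of that list's cells in the KCNA5 difference was not tested.

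KCNA4, a pore of the transient outward current, had 0.303, 0.348 and 0.243 FPKM in YAPi libraries, against 3.27 and 3.15 in GiWi libraries. No library overlapped, and the fold change was -3.29 ± 0.15 (log2, edgeR adjusted p = 7.18e-05). KCND3, another transient outward pore, went the other way, with 0.762, 0.736 and 0.541 FPKM against 0.129 and 0.098 (2.75 ± 0.26, adjusted p = 5.97e-04). KCND2, its close relative, overlapped between the groups at 0.197, 0.226 and 0.324 FPKM in YAPi libraries and 0.272 and 0.250 in GiWi libraries, and did not pass the test (0.07 ± 0.26, adjusted p = 0.839). The genes of the transient outward current therefore differed in both directions. KCND1, the remaining KCND gene, was lower at -1.26 ± 0.29 (adjusted p = 0.0129), a call lost without either GiWi replicate. KCNC1, a fast-gating pore best known from neurons, had 0.045, 0.065 and 0.063 FPKM against 0.646 and 0.636 (-3.33 ± 0.21, adjusted p = 1.69e-04).

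KCNG1, a silent subunit, was together with KCNE4 at the top of the YAPi levels, ahead of it in replicate 3 and behind it in replicates 1 and 2. It had 19.0, 19.1 and 24.1 FPKM in YAPi libraries and 8.01 and 9.15 in GiWi libraries, with replicate 3 highest, a fold change of 1.41 ± 0.14 (log2) and an edgeR adjusted p of 7.96e-04. KCNV2, a silent subunit known from retinal photoreceptors, had 1.28, 1.38 and 0.568 FPKM in YAPi libraries and 0.0080 in both GiWi libraries, where only 2 reads were counted in all. Its ratio of counts per sequenced read was 137 (95% interval 37.8 to 1140, counting error only). It was lowest in YAPi replicate 3, as were the sums of several marker lists. Among these were the cardiomyocyte, macrophage, gut epithelium, and eye and pigment cell lists. The part of any of these cells was not tested. To account for the other members of this group, chosen after their values were seen, KCNC4 (0.63 ± 0.11), KCNS2 (2.10 ± 0.42) and KCNB2 (ratio 12.2, interval 3.97 to 130, with 2.5 GiWi counts) were higher. KCNA1 (-2.56 ± 0.26), KCNA6 (-0.91 ± 0.18) and KCNS3 (-0.55 ± 0.18) were lower, and KCNF1 and KCNV1 did not pass the test. Without GiWi replicate 1 the KCNC4, KCNS2 and KCNA6 calls were lost, that of KCNB2 was lost on log2(FPKM + 1), and that of KCNS3 was lost without any 1 of GiWi replicates 1 and 2 and YAPi replicates 1 and 2.

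In the ether-a-go-go family, KCNH2 forms the channel of the rapid delayed rectifier, whose block prolongs the QT interval. It lies at chr7:150642044-150675402 (hg19) and had 11.0, 11.2 and 8.85 FPKM in YAPi libraries, against 19.4 and 19.4 in GiWi libraries. Every YAPi library was below every GiWi library, at a log2 fold change of -0.83 ± 0.09 (edgeR adjusted p = 0.00116), and KCNH2 supplied 90.4% of the family's summed FPKM in YAPi and 89.7% in GiWi cultures. KCNH7, a relative known mainly from neurons, had 0.104, 0.178 and 0.124 FPKM against 1.49 and 1.45 (-3.33 ± 0.23, adjusted p = 2.39e-04). KCNH6 was detected chiefly in YAPi libraries, at 0.538, 0.438 and 0.266 FPKM against 0 and 0.017, with 3 GiWi reads in all and a ratio of 55.5 (interval 18.8 to 271). KCNH3 overlapped between the groups (-0.38 ± 0.38, adjusted p = 0.423), and the 4 other KCNH genes were not tested.

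KCNQ1, the pore of the slow delayed rectifier, did not separate the groups. It had 4.43, 4.48 and 2.76 FPKM in YAPi libraries, against 4.09 and 3.92 in GiWi libraries, and its fold change was 0.10 ± 0.22 (log2, edgeR adjusted p = 0.724). YAPi replicate 3 alone lay below the GiWi libraries, and without it KCNQ1 was called higher, at 0.29. KCNQ3 and KCNQ5 take part in the M-current of neurons and smooth muscle. KCNQ3 had 0.136, 0.165 and 0.046 FPKM in YAPi libraries, against 0.893 and 0.853 in GiWi libraries (-2.78 ± 0.46, adjusted p = 0.00409). KCNQ5 was instead higher, at 1.23, 1.24 and 1.32 FPKM against 0.447 and 0.368 (1.77 ± 0.11, adjusted p = 1.88e-04). For both the groups did not overlap.

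The KCNE genes encode single-span subunits that modify other pores. KCNE4, which inhibits KCNQ1 and some KCNA pores in expression systems, was the leading one, at chr2:223916648-223920357 (hg19). It had 20.3, 21.4 and 19.8 FPKM in YAPi libraries, against 11.3 and 10.3 in GiWi libraries. These narrow ranges stood apart by 2.10-fold (log2 1.07 ± 0.06, edgeR adjusted p = 1.49e-04). KCNE3, a partner of KCNQ1 in intestinal epithelium, had 4.22, 4.22 and 3.09 FPKM against 0.321 and 0.230 (3.94 ± 0.23, adjusted p = 1.46e-04). It was the second KCNE gene in YAPi cultures, and the part of gut epithelial cells, whose 10 markers were all higher in YAPi cultures, was not tested. KCNE1, the partner of KCNQ1 in the slow delayed rectifier, had 0.328, 0.356 and 1.08 FPKM in YAPi libraries and 0.740 and 0.796 in GiWi libraries. The YAPi libraries straddled the GiWi ones, with replicate 3 above and replicates 1 and 2 below them, and the test was not passed (-0.21 ± 0.54, adjusted p = 0.762). Without replicate 3 KCNE1 was called lower, at -0.97. KCNE5 did not pass the test (-1.16 ± 0.48, adjusted p = 0.0848) and KCNE2 had too few counts, with 2 YAPi and 22 GiWi reads in all.

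**Figure D2:**
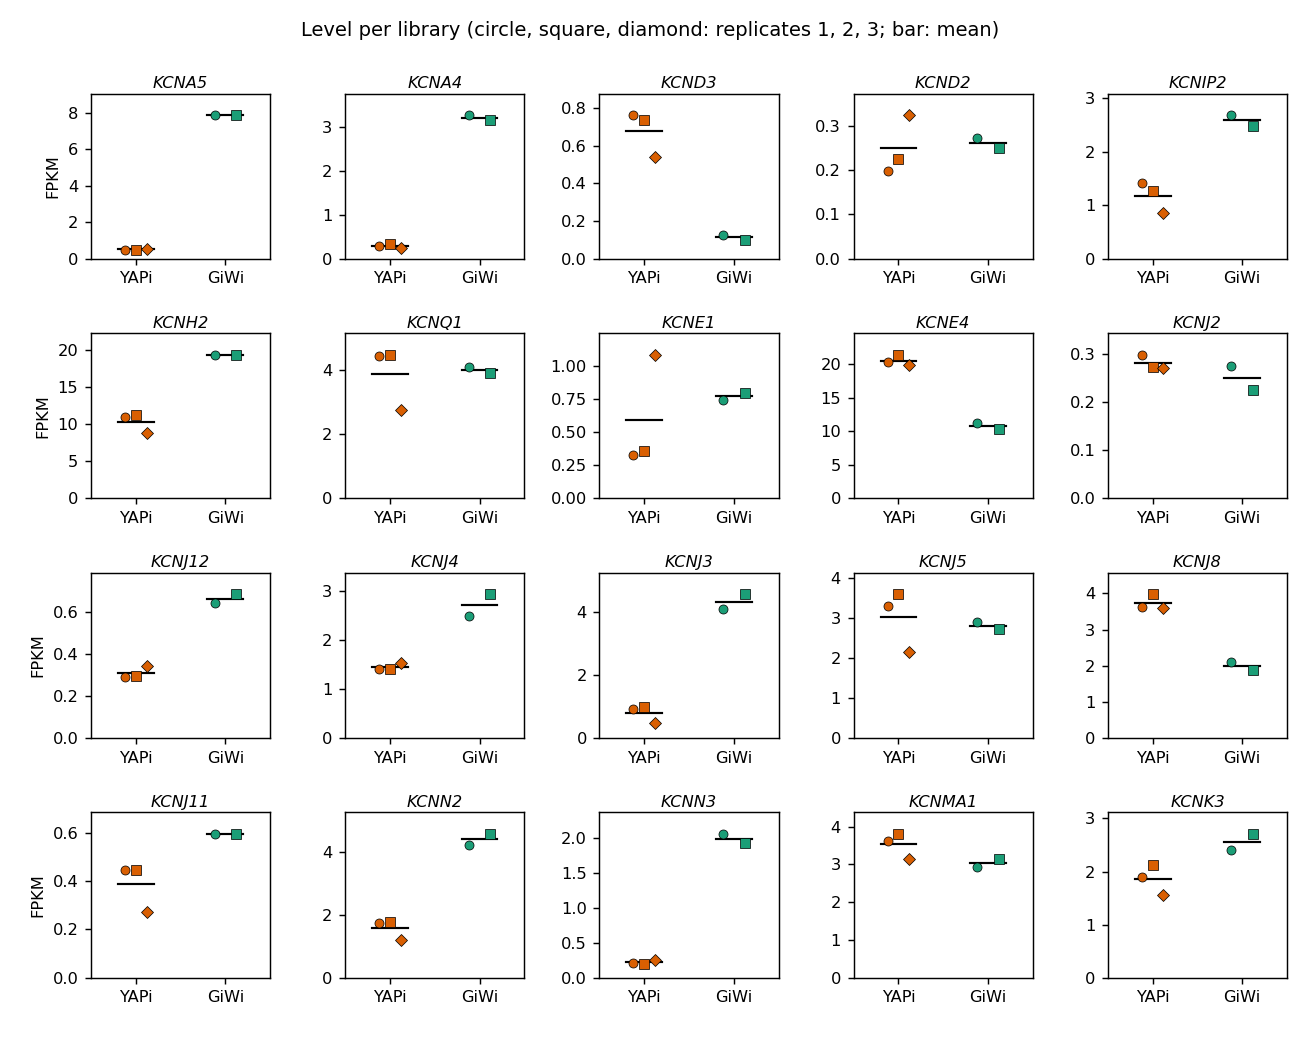
FPKM of cardiac potassium channel genes in each library (vertical axis, linear from 0, with its own scale in each panel), with YAPi libraries left of GiWi libraries, a symbol per replicate and a bar at each group's mean. KCNA5, KCNA4, KCNJ3 and KCNN3 lie lower in every YAPi library, KCNE4, KCNJ8 and KCND3 higher, and KCNQ1, KCNE1, KCNJ2 and KCNJ5 overlap.

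Among the inward rectifiers, 4 of 14 tested members were higher, 5 lower and 5 not past the test. Of all genes tested 30.2% were higher and 26.9% lower, so these counts alone do not set the family apart. KCNJ3 and KCNJ5 form the heteromeric channel that acetylcholine opens in atrial and nodal cells. KCNJ3 had 0.918, 0.998 and 0.469 FPKM in YAPi libraries, against 4.08 and 4.56 in GiWi libraries, which is 4.74-fold higher in GiWi cultures (log2 -2.24 ± 0.23, edgeR adjusted p = 8.04e-04). KCNJ5 overlapped, at 3.29, 3.59 and 2.16 FPKM against 2.89 and 2.72 (0.25 ± 0.22, adjusted p = 0.377). KCNJ5 stood above KCNJ3 in every YAPi library, while their order in GiWi libraries depends on the KCNJ3 transcript used, as KCNJ3 has 2.83 and 2.77 there per length of the counted transcript. For both the lowest YAPi value was replicate 3, and without it KCNJ5 was called higher, at 0.43. KCNJ6, another subunit of G protein-gated channels that is known from brain, was lower at -1.97 ± 0.36 (adjusted p = 0.00623), a call lost without GiWi replicate 1.

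The classical inward rectifier current of ventricular muscle rests on KCNJ2, with KCNJ12 and KCNJ4. KCNJ2 was low and alike in the groups, with 0.298, 0.272 and 0.271 FPKM in YAPi and 0.274 and 0.225 in GiWi libraries (0.31 ± 0.17, adjusted p = 0.172). KCNJ12 had 0.289, 0.294 and 0.341 FPKM against 0.643 and 0.683 (-0.96 ± 0.15, adjusted p = 0.00372), with its overlapping copy KCNJ18 alike (-1.09 ± 0.20). KCNJ4 had 1.41, 1.41 and 1.54 FPKM against 2.49 and 2.93 (-0.75 ± 0.15, adjusted p = 0.00808). Of this trio KCNJ12 and KCNJ4 were lower in every YAPi library, and without GiWi replicate 2 the calls of KCNJ4 (adjusted p = 0.0731) and KCNJ18 were lost.

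The ATP-sensitive pores are KCNJ8, prominent in pericytes and smooth muscle, and KCNJ11, the pore of the cardiac and pancreatic channel. KCNJ8 had 3.63, 3.98 and 3.59 FPKM in YAPi libraries, against 2.10 and 1.88 in GiWi libraries (1.05 ± 0.10, edgeR adjusted p = 6.04e-04), a clear separation. The smooth muscle and pericyte markers moved both ways, with 3 higher and 5 lower of 10 and sums of 1378, 1442 and 1253 against 1038 and 1066, and their part was not tested. KCNJ11 had 0.446, 0.448 and 0.274 FPKM against 0.597 and 0.595 and did not pass the test (-0.47 ± 0.25, adjusted p = 0.161), although every YAPi library was lower. KCNJ13 and KCNJ16 are known from epithelia, KCNJ13 also from the retinal pigment epithelium. KCNJ13 had 1.61, 1.38 and 0.662 FPKM against 0.046 and 0.078 (4.42 ± 0.53, adjusted p = 0.00138), and KCNJ16 had 0.631, 0.556 and 0.406 against 0.060 and 0.025 (3.81 ± 0.41, adjusted p = 8.95e-04). Both were lowest in YAPi replicate 3. The sums of the cardiomyocyte, macrophage, gut epithelium, and eye and pigment cell markers were also lowest there of the YAPi libraries. The part of those cells was not tested. KCNJ10 was higher at a low level (1.92 ± 0.51, adjusted p = 0.022), but its call was lost with DESeq2, on FPKM, and without GiWi replicate 2, YAPi replicate 1 or YAPi replicate 2. KCNJ14 and KCNJ15 did not pass the test, and KCNJ15 had 0.511 FPKM in YAPi replicate 3 beside 0.024 and 0.047 in the other YAPi libraries.

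Of the tandem-pore background channels, 7 of 9 tested members were higher in YAPi cultures, 1 was lower and 1 did not pass the test. Among all genes tested 30.2% were higher and 26.9% lower. KCNK12, a subunit that gives no current of its own in standard expression systems, had 15.9, 15.3 and 14.1 FPKM in YAPi libraries, against 0.483 and 0.548 in GiWi libraries. The 32.1-fold difference (log2 5.00 ± 0.11, edgeR adjusted p = 1.80e-05) was larger than the spread within either group, and the gene lies at chr2:47747915-47797470 in hg19. KCNK13, its closest relative, had 0.644, 0.50 and 0.371 FPKM against 0.066 and 0.059 (3.14 ± 0.35, adjusted p = 9.95e-04). KCNK6, a channel described in lysosomes and smooth muscle, had 13.9, 13.9 and 14.5 FPKM against 3.11 and 3.48 (2.24 ± 0.09, adjusted p = 4.48e-05). The KCNK6 groups did not overlap. The part of macrophages, whose 10 markers were all higher in YAPi cultures, was not tested. KCNK5, an alkaline-activated channel of kidney and other epithelia, had 3.13, 3.18 and 2.06 FPKM against 0.473 and 0.382 (2.85 ± 0.25, adjusted p = 4.71e-04). As with KCNE3, it was lowest in YAPi replicate 3, like the sums of several marker lists. The part of gut epithelial cells was not tested.

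KCNK1 and KCNK3 are the tandem-pore genes best known from the human heart. KCNK1 had 3.98, 4.17 and 4.36 FPKM in YAPi libraries, against 3.73 and 3.56 in GiWi libraries, a small rise (0.33 ± 0.08, edgeR adjusted p = 0.0174) that was no longer called when libraries were scaled by their totals only (adjusted p = 0.169) and without GiWi replicate 1, GiWi replicate 2 or YAPi replicate 2. KCNK3 had 1.89, 2.12 and 1.56 FPKM against 2.40 and 2.71 (-0.32 ± 0.15, adjusted p = 0.118). KCNK2, the stretch-activated channel, was the family's lower member, with 0.429, 0.525 and 1.07 FPKM against 3.18 and 2.95 (-2.05 ± 0.38, adjusted p = 0.00616), and its highest YAPi value was in replicate 3. KCNK10, in the same subfamily as KCNK2, was higher at 0.224, 0.174 and 0.117 FPKM against 0.005 and 0.012 (4.50 ± 0.52, adjusted p = 0.00117). KCNK15, a silent relative of KCNK3, was higher at 1.17 ± 0.24 (adjusted p = 0.00867), a call lost without GiWi replicate 1. KCNK16 had 11.5 reads in the YAPi libraries and 0 in the GiWi libraries, at least 2.72-fold higher with a floor of 3 reads over the group.

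**Figure D3:**
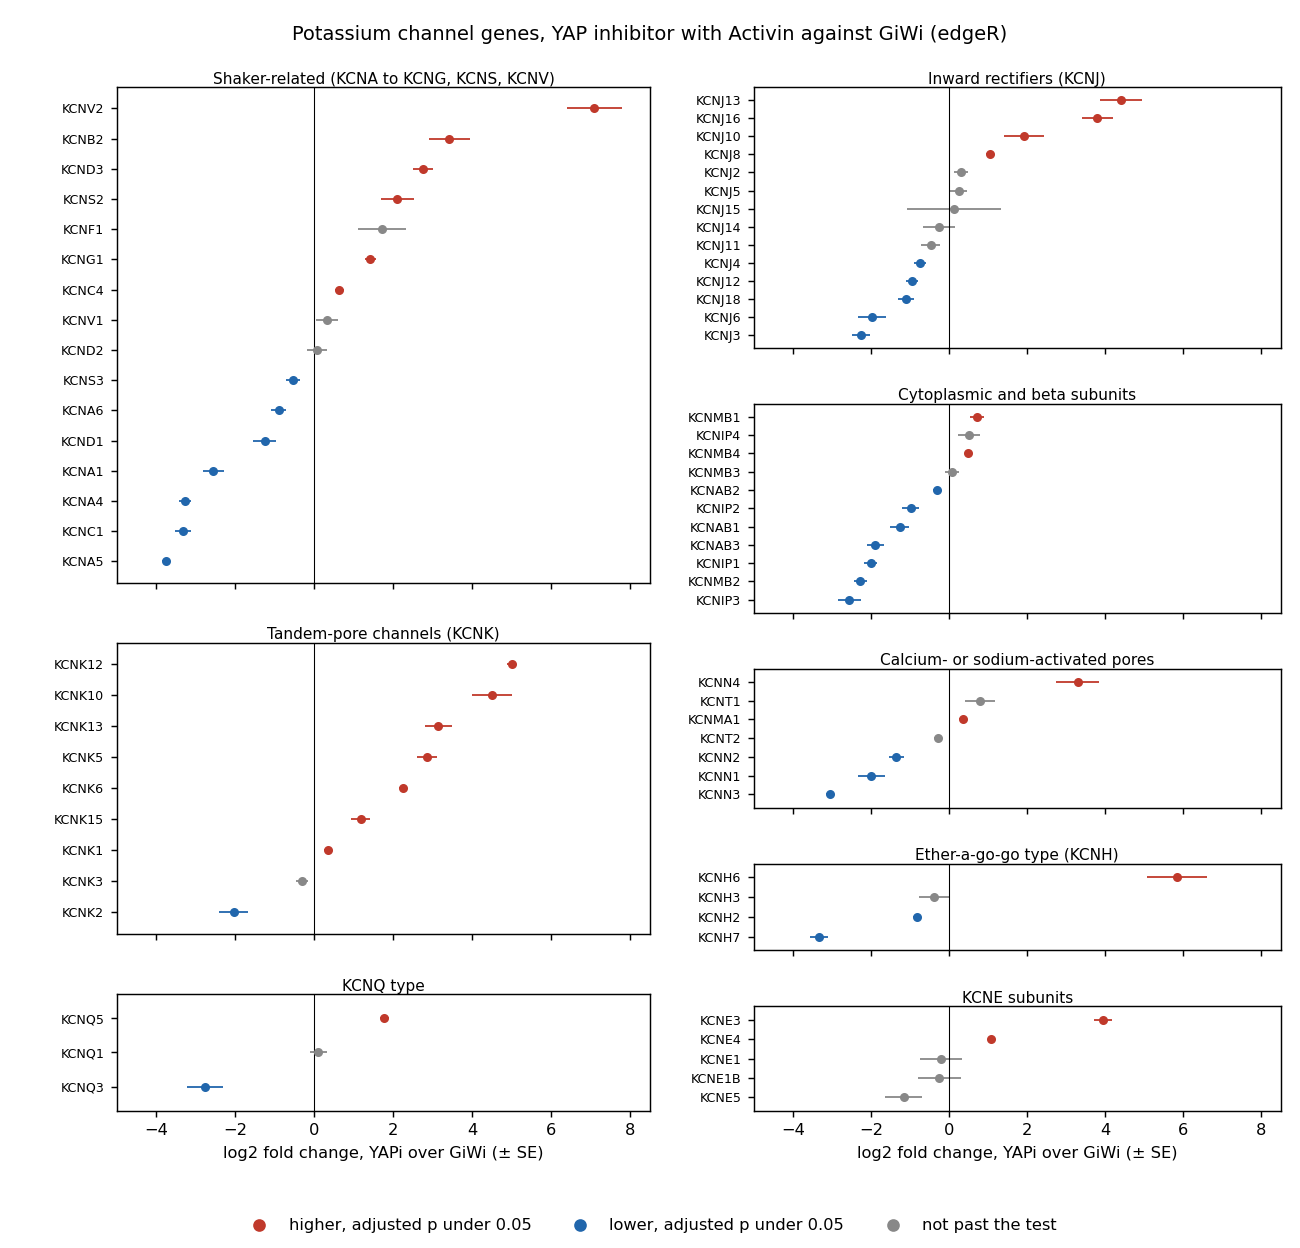
log2 fold change of YAPi over GiWi with its standard error for the tested potassium channel genes that are reported by name, grouped by family, with red points higher and blue points lower at an edgeR adjusted p under 0.05 and grey points not past the test. The tandem-pore genes lie mostly above 0 and the cytoplasmic and beta subunits mostly below, and the values of KCNV2, KCNH6 and KCNB2 rest on 2, 3 and 2.5 GiWi reads, so their size depends on the fit.

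The calcium-activated pores divided by type. KCNMA1, the large-conductance channel, had 3.63, 3.81 and 3.16 FPKM in YAPi libraries, against 2.94 and 3.15 in GiWi libraries. The lowest YAPi library lay next to the higher GiWi library, and the small difference (0.35 ± 0.10, edgeR adjusted p = 0.0278) was lost with library size alone (adjusted p = 0.235), on FPKM, and without any 1 of GiWi replicates 1 and 2 and YAPi replicates 1 and 2. The 3 small-conductance genes, which open with submicromolar calcium and are expressed in human atria, were all lower. KCNN1 had 0.418, 0.497 and 0.932 FPKM against 2.68 and 2.70 (-1.99 ± 0.34, adjusted p = 0.00454), KCNN2 had 1.75, 1.76 and 1.19 against 4.21 and 4.56 (-1.35 ± 0.19, adjusted p = 0.00226), and KCNN3 had 0.206, 0.199 and 0.248 against 2.06 and 1.93 (-3.05 ± 0.11, adjusted p = 3.92e-05). Every YAPi library lay below every GiWi library for all 3 genes. KCNN3 is an atrial fibrillation risk gene and the most strongly lowered of these. KCNN4, the intermediate-conductance channel of blood and epithelial cells, was instead higher, with 0.280, 0.311 and 0.520 FPKM against 0.022 and 0.063 (3.29 ± 0.54, adjusted p = 0.00408). Within YAPi cultures KCNN4 was highest in replicate 3. The part of macrophages and gut epithelial cells, whose listed markers were all higher in YAPi cultures, was not tested. The sodium-activated KCNT1 and KCNT2 did not pass the test.

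Of the 11 cytoplasmic and beta subunits, all tested, 7 were lower in YAPi cultures, 2 were higher and 2 did not pass the test. Among all genes tested 26.9% were lower and 30.2% higher. KCNIP1 to KCNIP3 encode calcium-binding subunits of the KCND pores. KCNIP2, the cardiac one, had 1.41, 1.27 and 0.855 FPKM in YAPi libraries, against 2.68 and 2.48 in GiWi libraries (-0.98 ± 0.21, edgeR adjusted p = 0.0112), and KCNIP1 had 1.16, 0.993 and 0.796 against 4.25 and 4.46 (-2.00 ± 0.17, adjusted p = 4.46e-04). KCNIP3 had 0.097, 0.116 and 0.190 FPKM against 0.958 and 0.779 (-2.55 ± 0.30, adjusted p = 0.0013). Every YAPi library lay below every GiWi library for all 3, whereas KCNIP4 overlapped in part (0.51 ± 0.29, adjusted p = 0.182). The KCNIP2 call was lost without GiWi replicate 1 (adjusted p = 0.0764) or GiWi replicate 2 (0.0686). The KCNAB genes, beta subunits of the KCNA pores, were all lower, at -1.26 ± 0.25 (KCNAB1), -0.32 ± 0.08 (KCNAB2) and -1.89 ± 0.21 (KCNAB3), with adjusted p of 0.0081, 0.0204 and 0.00106. Without either GiWi replicate the KCNAB1 and KCNAB2 calls were lost, that of KCNAB2 also without YAPi replicate 2.

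The KCNMB genes are beta subunits of KCNMA1 and moved apart from each other. KCNMB1, the smooth muscle form, had 2.67, 3.13 and 2.30 FPKM in YAPi libraries, against 1.70 and 1.95 in GiWi libraries (0.71 ± 0.18, edgeR adjusted p = 0.0189). This call was lost with library size alone and without GiWi replicate 1, GiWi replicate 2 or YAPi replicate 2. KCNMB2, which gives the channel fast inactivation, had 0.430, 0.322 and 0.401 FPKM against 2.10 and 2.01 (-2.28 ± 0.17, adjusted p = 2.75e-04). KCNMB4, the form best known from neurons, had 3.12, 3.30 and 3.10 FPKM against 2.52 and 2.49 (0.48 ± 0.07, adjusted p = 0.00229), and KCNMB3 overlapped between the groups (0.09 ± 0.18, adjusted p = 0.702). KCNMB4 thus had the highest mean FPKM of the KCNMB genes in both groups, ahead of KCNMB2 in GiWi cultures. In YAPi cultures it was followed by KCNMB1, whose libraries overlapped those of KCNMB4.

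Summed over each family, the FPKM of the tandem-pore genes was 40.9, 40.8 and 39.2 in YAPi libraries, against 13.9 and 14.2 in GiWi libraries. These genes made up 27.8% ± 0.33 of the summed FPKM of all members in YAPi (SD, n = 3) and 10.5% ± 0.13 in GiWi cultures (SD, n = 2). The KCNE genes summed to 25.3, 26.5 and 25.1 FPKM against 13.3 and 12.7. Sums were lower in YAPi cultures for the ether-a-go-go family (12.0, 12.3 and 10.1 against 21.6 and 21.6), the calcium- and sodium-activated pores (7.12, 7.40 and 6.82 against 13.0 and 13.4) and the cytoplasmic and beta subunits (12.8 ± 1.34, n = 3, against 19.8 ± 0.19, n = 2, mean ± SD). The KCNQ genes (6.45, 6.58 and 4.64 against 8.44 and 7.87) and the inward rectifiers (12.4 ± 1.44 against 14.7 ± 0.25, mean ± SD) also had lower sums. The Shaker-related sums overlapped, at 27.4, 27.9 and 32.5 FPKM against 28.2 and 29.1. The leading gene weighed differently, as KCNG1 supplied 70.9% of this sum in YAPi and 29.9% in GiWi cultures. The sum over all members was 146, 149 and 140.4 FPKM in YAPi and 133 and 134 in GiWi libraries. No test was made on these sums.

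**Figure D4:**
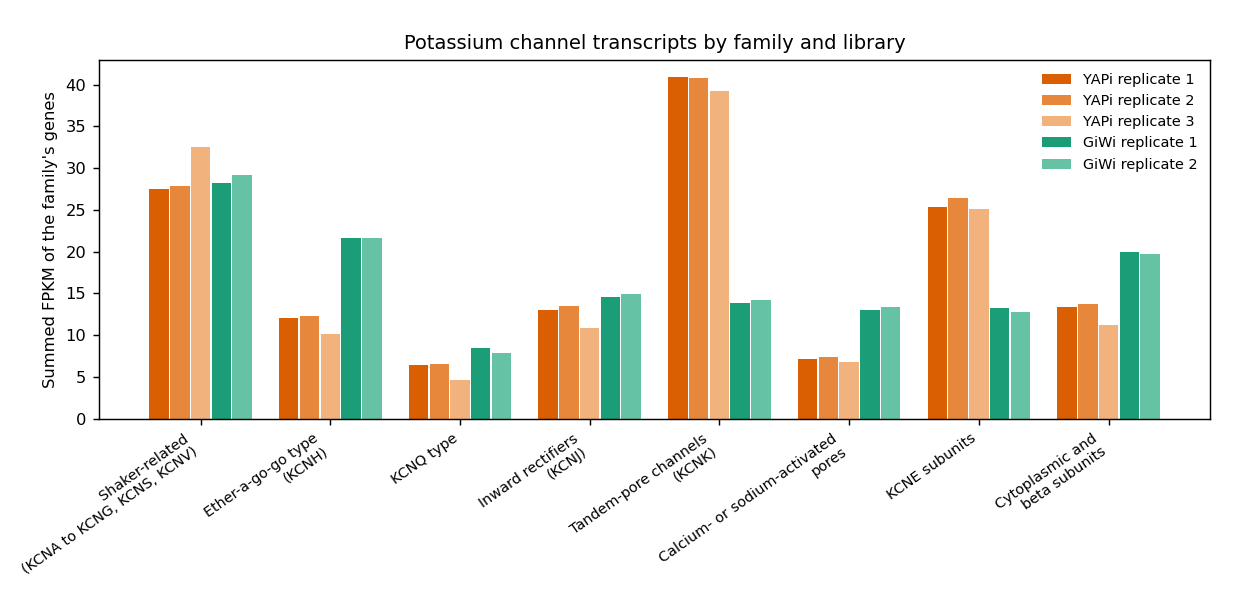
Summed FPKM of the potassium channel genes of each family in each library (bars from 0), with YAPi libraries left of GiWi libraries. The tandem-pore sums lie at 39.2 to 40.9 in YAPi and 13.9 to 14.2 in GiWi libraries, and the Shaker-related sums overlap.

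A list of 27 genes whose proteins bind or regulate these channels but are no members gave 8 higher, 10 lower, 7 not past the test and 2 not tested. Calls were common over all genes tested as well, with 30.2% higher and 26.9% lower. DPP10, which joins the KCND pores and speeds their gating, had 15.5, 14.8 and 16.1 FPKM in YAPi libraries, against 3.45 and 3.18 in GiWi libraries (2.36 ± 0.07, edgeR adjusted p = 2.29e-05). DPP6, with the same role, did not pass the test (0.07 ± 0.47, adjusted p = 0.904). LRRC55, a gamma subunit of KCNMA1, had 0.159, 0.159 and 0.214 FPKM against 3.02 and 2.84 (-3.90 ± 0.15, adjusted p = 4.72e-05). SGK1, a kinase that raises the surface level of several channels, had 7.81, 7.26 and 7.35 FPKM against 20.7 and 19.5 (-1.32 ± 0.05, adjusted p = 5.25e-05), and ANK2, an anchoring protein, was lower at -1.26 ± 0.12 (adjusted p = 6.42e-04). Of the genes of the KCND complex, KCND3 and DPP10 were thus higher, and KCND1, KCNIP1, KCNIP2 and KCNIP3 lower, in YAPi cultures. Calmodulin, the calcium sensor of the KCNN and KCNQ channels, is encoded by several genes, of which CALM2 (1.68 ± 0.10) was higher and CALM3 (-0.52 ± 0.06) was lower, with edgeR adjusted p of 1.50e-04 and 0.00146. ABCC9, the sulfonylurea receptor that pairs with KCNJ8 and KCNJ11, did not pass the test (-0.19 ± 0.16, adjusted p = 0.35).

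The 23 members without a test were low in both groups, with a highest mean of 0.228 FPKM (KCNE2 in GiWi cultures). KCNA10 and KCNK18 had no read in any library. KCNG4 had 14.5 reads in YAPi and 0 in GiWi libraries, at least 3.43-fold higher with a floor of 3 reads over the group. KCNA7 and KCNE2 ran the other way, with 2 YAPi reads each against 20.5 and 22 GiWi reads, and GiWi over YAPi ratios of 14.5 (interval 3.43 to 124) and 15.5 (3.81 to 136). These members were picked for few reads in 1 group beside more in the other, so no tendency near the floor can be read from them. The GiWi reads of KCNE2 were 5 and 17 in replicates 1 and 2, a spread that the intervals leave out.

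YAPi replicate 3 was set beside the other YAPi libraries for every tested member. Its log2 CPM lay a median of 0.09 below the mean of replicates 1 and 2, with 43 of 73 members below 0, while the median over all genes was -0.0023 and that over the 15 cardiomyocyte markers was -1.22. The members went both ways, with 42 below and 26 above both other YAPi replicates, and KCNQ1 (-0.66), KCNJ3 (-0.65) and KCNJ5 (-0.64) were among the lower ones. The widest gaps were at KCNQ3 (-1.19) and KCNJ13 (-1.05) below, and at KCNJ15 (1.90), KCNE1B (1.37), KCNE1 (1.35) and KCNK2 (1.01) above. Without this library all 53 member calls were kept, 12 were added, and 31 members were higher and 34 lower, while 74.9% of all genes tested were then called (38.4% higher and 36.5% lower). The added members included KCNE1, KCNE1B, KCNF1, KCNH3, KCNIP4, KCNJ5, KCNJ15, KCNK3, KCNQ1, KCNT1 and KCNT2.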

How the data were processed

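RNA from 5 cultures was sequenced on a HiSeq after library preparation with a strand-preserving mRNA kit, per the labels' protocols. Tools named in the submitters' processing notes are STAR 2.5.1, FastQC 0.11.5, edgeR 3.16.1 and HOMER, on the hg19 build, without their roles. Whether reads were counted by strand is not stated in the labels or headers. Reads of a channel gene and an overlapping antisense gene may therefore be mixed. The authors deposited a table of estimated counts per gene (multiples of 0.5, 34.6% not whole) and a table of FPKM, both per the file headers. The tables list different transcripts for 7379 genes, 28 of them members, so they were joined by symbol, and levels are FPKM while tests use the counts.

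Counts were rounded to whole numbers. Genes passing filterByExpr (minimum count 10, total 15) were scaled by TMM and tested with edgeR 4.0.16 (R 4.3.3), YAPi (n = 3) over GiWi (n = 2), with Benjamini-Hochberg adjustment over all 17634 genes. Fold changes are log2 with standard errors. Bulk RNA reads carry no molecular identifiers, so intervals cover counting error only. Results were also computed with DESeq2 1.42.0, with limma 3.58.1 (voom with weights per sample, and log2 of FPKM plus 1 or 0.1), with RLE factors or none, without a filter, with a minimum of 1 CPM in 2 libraries, without each library and with a replicate block.

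The members, families and lists were chosen with earlier results of these data known. Genes chosen to be given with values were 22 fixed ones, up to 4 called members per family with non-overlapping libraries and a mean of at least 0.5 FPKM, the 8 most abundant members and 6 called partner genes. The other members and partner genes were named to account for them, after their values were seen. Promoters come from RefSeq (GRCh38.p14). A few members and partner genes were counted in all totals and are not reported here by name.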

Additional observations from a re-analysis of the deposited data

How the results depend on the processing

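No called member was called in the opposite direction under any alternative tried. The sign of genes that were not called could change. KCND2, at 0.07, had 1.32 and 1.53 CPM in YAPi replicates 1 and 2, below the 1.64 and 1.55 of the GiWi libraries. Its sign therefore rests on YAPi replicate 3. The 40 members and 6 partner genes chosen to be given with values, picked in part because they were called, were compared with each alternative. Of these comparisons 611 stayed on their side of the threshold, 17 gained and 16 lost a call. Calls outside that choice were less stable. Of all 53 called members, 49 kept the call without YAPi replicate 1 and 46 without YAPi replicate 2. Further calls were lost without a GiWi replicate, as given above for single genes. The members higher and lower were 25 and 28 with RLE factors and with DESeq2, 22 and 30 with library size alone, which moved the median log2 fold change of all genes to -0.18, and 30 and 30 with no filter. With limma-voom they were 31 and 33, and on log2(FPKM + 1) 21 and 30. Leaving out each library gave 19 to 31 higher and 20 to 34 lower members, and the partner genes higher ranged from 5 (without GiWi replicate 2) to 11 (without YAPi replicate 3), and the lower ones from 7 to 11. The replicate block, in which YAPi replicate 3 has a block of its own, gave 31 higher and 34 lower members, and 12 and 12 partner genes. The member counts were the same without YAPi replicate 3. Deviations of libraries with equal replicate numbers correlated at 0.0508 and -0.0303. With 2 GiWi libraries these deviations mirror each other, so the correlations cannot tell whether the libraries were paired. The block result is therefore not read as a paired result. The median log2 fold change of the members tested lay between -0.26 (at least 1 CPM in 2 libraries) and 0.14 (without GiWi replicate 1), so its sign depends on the setting. The common dispersion of 0.0232 rests on 5 libraries, and members under about 0.1 FPKM hold few reads, which limits what their comparison can show.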

Other observations

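For 28 potassium channel genes the deposited FPKM and count tables describe different transcripts, and this allowed the share of a gene's counted reads that lay on the FPKM transcript to be computed. For KCNH2 the FPKM transcript (2437 of 4273 bases) held 81.1, 83.8 and 79.4% of counted reads in YAPi and 77.9 and 78.0% in GiWi libraries, and for KCNJ3 (1141 of 4735 bases) the shares overlapped at 35.5, 38.8 and 31.4% against 34.8 and 39.7%. No test was made on these shares.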
